A study of Saccharomyces cerevisiae with 40 samples.

Results

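The lysine synthesis genes LYS20, LYS21, LYS4, LYS12, LYS9, LYS1 and LYS14 of budding yeast, Saccharomyces cerevisiae, were followed through 40 one-colour Affymetrix arrays of laboratory-evolved populations. They are 7 of the 5449 genes that could be matched to probe sets, and their probe sets were found by the gene symbols on the platform. The choice of these genes was made with earlier results of these data known. The levels are log2 values made with RMA, which removes background, gives arrays of a run the same distribution and summarises each probe set as 1 value. A difference of 1 on this scale is a doubling.

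The arrays fall into 16 groups. All cells had been grown for 18 generations without stress and taken at mid log phase before RNA extraction. Levels were thus read away from heat and high pH, while for minimal medium this is not known. Among diploids, the ancestor had 2 arrays and populations held at 30 °C for 450 generations had 2. Populations moved at once to 39 °C had 4 arrays after 450 generations (abrupt heat), and those warmed gradually from 30 °C to 39 °C over the same time had 4 (gradual heat). A wild-type clone trisomic for chromosome III and a clone monosomic for it had 1 array each. H2, a line from the abrupt heat, had 4 arrays after a further 600 generations at 30 °C, and 2 after a further 1000 generations in which heat of 39 °C was combined with minimal medium. A strain trisomic for chromosome III had 2 arrays after 1000 generations of that same combination, and the ancestor had 1 array on minimal medium. Among haploids, the ancestor had 2 arrays. A line grown at pH 8.6 had 1 array at 150 generations and 4 at 750, and its spores, of which 1 was euploid and 1 disomic, had 1 array each. The last group was 8 spores of a line named evo39. The labels do not say in which medium the minimal-medium lines spent the last 18 generations, nor whether numbered arrays came from separate cultures. The p-values therefore measure the spread between arrays, which may be technical or, among the evo39 spores, include differences between spores.

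Fungi make lysine from 2-oxoglutarate by the aminoadipate pathway. LYS20 and LYS21 encode the homocitrate synthase isozymes of the first step, which lysine inhibits, LYS4 encodes homoaconitase and LYS12 homoisocitrate dehydrogenase. LYS2, activated by the product of LYS5, reduces aminoadipate, and the saccharopine dehydrogenases encoded by LYS9 and LYS1 complete the synthesis, with lysine as the product of LYS1. LYS14 encodes the transcription activator of the pathway, which responds to an intermediate, and Gcn4 activates these genes with those of other amino acids when amino acids are short.

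Arrays share a scale only where the authors normalized them together, and the runs had to be inferred from values that were identical on different arrays. This gave 9 sets, of which 5 hold a reference array, either an ancestor or the ancestor on minimal medium. A reference of the same set was present for 27 arrays, and 8 arrays had none. All 280 of 280 member values lay above the background level, which was the 95th percentile of probe sets made for another species, between 4.23 and 5.36. The lowest member level was 8.60. None of the 7 genes lies on chromosome III, whose copy number the labels name as altered in some strains. Changes were fitted with limma over all genes above background, 5335 in the 23 diploid and 5352 in the 17 arrays labelled as haploid or as spores, with the set as a term. They are given as log2 change ± SE, with p-values adjusted over all genes tested and a threshold of 0.05.

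All 7 genes were lower in the H2 descent after heat on minimal medium than in the ancestor on minimal medium. LYS1 was 8.13-fold lower and LYS20 5.78-fold lower, while LYS12, with the smallest change of the 7, was 1.69-fold lower. The trisomic descent, which had the same 1000 generations of heat on minimal medium, stayed within 1.54-fold of the ancestor at every member. The plot of the levels on the minimal-medium arrays shows H2 as the lowest group at each gene.

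**Figure D1:**
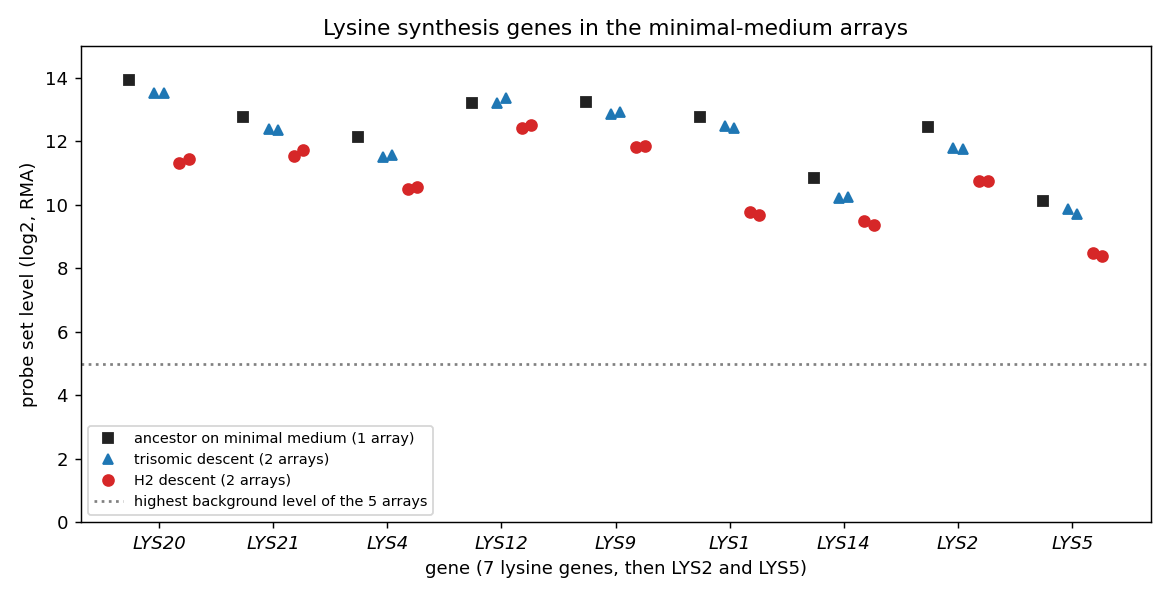
Log2 RMA level of the 7 genes, LYS2 and LYS5 on the 5 arrays of the minimal-medium set, 1 point per array, with the highest background level of these arrays dotted. Both H2 arrays lie below both trisomic arrays and the ancestor at every gene, with LYS1 at 9.77 and 9.67 against 12.75 in the ancestor.

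At the first step, LYS20 had a level of 13.92 in the ancestor on minimal medium, 11.32 and 11.45 on the H2 arrays and 13.52 on both trisomic arrays. Its isozyme LYS21 had 12.75 in the ancestor, 11.53 and 11.73 in H2, and 12.38 and 12.37 in the trisomic descent. For both isozymes the H2 arrays were the lowest. The share of all genes with H2 as the lowest group was not counted. Both H2 arrays lay below the ancestor at 7 of 7 members and at 42.2% of all genes, and both trisomic arrays at 6 of 7 members and 36.9% of genes. The fitted change in H2 was −2.53 ± 0.15 for LYS20 (n = 2 against 1, limma adjusted p = 2.06e-08) and −1.12 ± 0.13 for LYS21 (adjusted p = 1.17e-05). LYS20 thus had the larger fall of the pair: its difference from the reference exceeded that of LYS21 by −1.38 and −1.45 on the H2 arrays, but by −0.02 and −0.01 on the trisomic arrays. This contrast between the isozymes was not tested.

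Homoaconitase, LYS4, stood at 12.12 in the ancestor, at 10.49 and 10.57 in H2 and at 11.51 and 11.57 in the trisomic descent. The homoisocitrate dehydrogenase gene LYS12 stood at 13.21 in the ancestor, at 12.43 and 12.50 in H2 and at 13.20 and 13.37 in the trisomic descent. LYS4 thus had 3 separate levels, while the LYS12 level of the ancestor lay between those of the trisomic arrays and only H2 stood apart. The changes in H2 were −1.59 ± 0.08 for LYS4 (limma adjusted p = 3.69e-09) and −0.75 ± 0.06 for LYS12 (adjusted p = 4.32e-07).

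The genes of the last steps differed in how far they fell. LYS9 had a level of 13.24 in the ancestor, 11.80 and 11.84 in H2, and 12.85 and 12.93 in the trisomic descent. LYS1 had 12.75 in the ancestor, 9.77 and 9.67 in H2, and 12.48 and 12.42 in the trisomic descent. Both genes were lowest on the H2 arrays, and the distance was larger at LYS1. The change in H2 was −1.42 ± 0.11 for LYS9 (limma adjusted p = 1.33e-07) and −3.02 ± 0.11 for LYS1 (adjusted p = 2.54e-10). Of all genes tested, 0.525% had a change in H2 as low as that of LYS1 or lower.

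The activator gene LYS14 had 10.85 in the ancestor, 9.49 and 9.35 in H2, and 10.21 and 10.25 in the trisomic descent. It too was lowest in H2, and its change was −1.43 ± 0.10 (limma adjusted p = 5.42e-08), or 2.70-fold. With LYS14, 7 of 7 members passed the test as lower in H2, in a comparison where 27.3% of all genes did. The median change of the members was −1.43 and that of all genes 0.03.

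In the trisomic descent against the ancestor on minimal medium, 4 of 7 members passed as lower, where 15.1% of all genes did. LYS14 changed by −0.62 ± 0.10 (n = 2 against 1, limma adjusted p = 0.000463) and LYS4 by −0.59 ± 0.08 (adjusted p = 0.000148). LYS21 at −0.38 ± 0.13 and LYS9 at −0.35 ± 0.11 passed with adjusted p = 0.0439 and 0.0216. LYS20 at −0.40 ± 0.15, LYS1 at −0.30 ± 0.11 and LYS12 at 0.07 ± 0.06 did not pass, with adjusted p = 0.0637, 0.0524 and 0.434. The median of the members was −0.38, against 0.01 for all genes. No member was called when the set term was dropped, and none when only these 3 arrays entered the fit.

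The direct comparison of the evolved lines gave 7 of 7 members lower in H2 than in the trisomic descent, where 19.8% of all genes were lower. The gap was −2.73 ± 0.09 at LYS1 (n = 2 against 2, limma adjusted p = 1.02e-10) and −2.14 ± 0.13 at LYS20 (adjusted p = 2.63e-08). It was −1.07 ± 0.09 at LYS9, −1.01 ± 0.06 at LYS4, −0.82 ± 0.05 at LYS12, −0.82 ± 0.08 at LYS14 and −0.74 ± 0.11 at LYS21, the smallest, with an adjusted p of 0.00015. Without the set term 3 of the 7 kept a call. As in any bulk RNA, fewer cells that make a transcript and less transcript per cell cannot be told apart.

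The rest of the pathway fell in H2 with the members. LYS2, LYS5 and ARO8, an aminotransferase gene that also acts on aminoadipate, changed by −1.70 ± 0.09, −1.70 ± 0.11 and −1.20 ± 0.10, each lower by limma. In the trisomic descent the same 3 genes were lower by smaller amounts, with −0.68 ± 0.09, −0.35 ± 0.11 and −0.41 ± 0.10. Among genes of regulation and transport, LYP1, the lysine permease, changed by −0.71 ± 0.09 in H2, and GCN4 by −0.44 ± 0.05, both lower. MKS1, a repressor of the pathway, had 0.16 ± 0.11 (limma adjusted p = 0.249), and VBA1, a vacuolar transporter of basic amino acids, −0.07 ± 0.10 (adjusted p = 0.587). In the trisomic descent LYP1 and GCN4 were lower, at −0.44 ± 0.09 and −0.14 ± 0.05, and MKS1 and VBA1 did not pass.

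Other amino acid synthesis genes under Gcn4 were lower in H2 as well: 23 of 23 measured genes passed, where 27.3% of all genes did. Their median change was −1.48. The arginine synthesis genes ARG3 at −4.17 ± 0.27, ARG1 at −3.11 ± 0.31 and ARG8 at −2.63 ± 0.13 were lower than this median, as was HIS4, a histidine synthesis gene on chromosome III, at −2.51 ± 0.07. In the trisomic descent 13 of the 23 passed as lower, where 15.1% of all genes did, with a median of −0.26. HIS4 there had −0.49 ± 0.07 and passed, while ARG3 had −0.33 ± 0.27 and ARG1 −0.18 ± 0.31 and did not. The median of the lysine genes, −1.43 in H2 and −0.38 in the trisomic descent, was close to that of this list. The genes that supply and carry 2-oxoglutarate went in both directions in H2. Of 9 measured, 3 passed as lower, IDP1 by 1.99-fold, ODC1 at −0.50 ± 0.16 and DLD3 at −0.48 ± 0.18, and ACO1 passed as higher at 0.68 ± 0.13, where 27.3% of all genes were lower and 30.6% higher. The 3 of 9 lower is near its share and the 1 of 9 higher is below it. In the trisomic descent IDH1 alone passed, as lower, at −0.35 ± 0.13.

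A marker gene differed between the same arrays. MET17, a sulfur assimilation gene deleted in many laboratory strains, had a level of 12.65 in the ancestor on minimal medium and 13.21 and 13.13 in the trisomic descent. On the H2 arrays it was at 4.86 and 4.90, below their background of 4.98 and 4.95. Its part in the lysine gene levels was not tested.

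Levels of different sets do not share a scale, so members were placed across conditions by the percentage of genes on the same array with a lower level. LYS1 was at 93.0% in the ancestor on minimal medium and at 91.4% in the trisomic descent, against 50.2% in H2 on minimal medium and 32.2% to 69.1% on the 35 arrays of other sets. LYS20 was at 98.6%, 97.1% and 81.5% in these 3 groups and at 84.3% to 95.1% elsewhere. LYS14 was at 73.4%, 61.1% and 42.2%, and at 28.9% to 50.8% elsewhere. For LYS1 and LYS14 the order thus put the ancestor on minimal medium first and the trisomic descent next, with H2 inside the range of the remaining arrays, and LYS20 in H2 lay below that range. Minimal medium and normalization run cannot be told apart in this order, and no test was made of it.

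**Figure D2:**
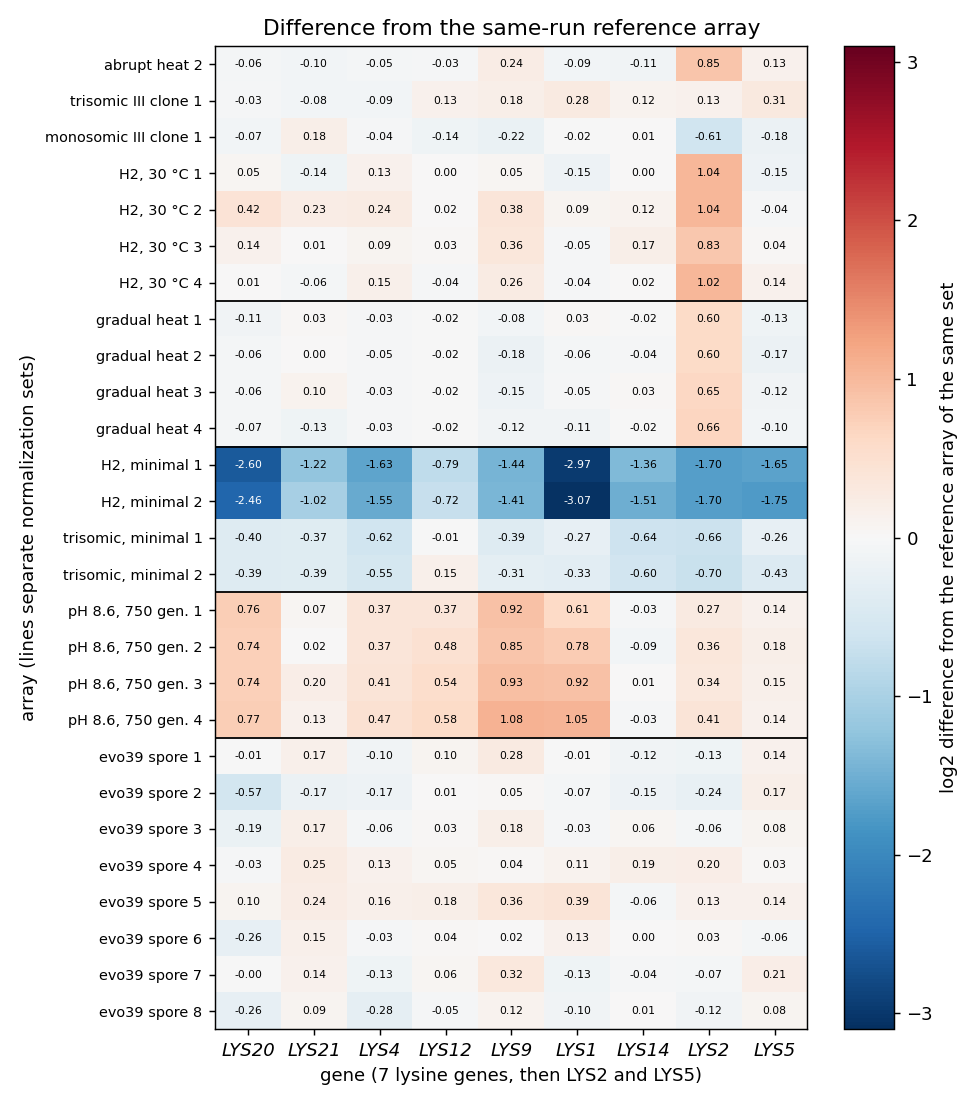
Log2 difference of each of the 27 arrays from the reference array of its set, for the 7 genes, LYS2 and LYS5, with colour for the size. Both H2 arrays of the minimal-medium set are at −0.72 or lower for every member. The 4 arrays of the line evolved at pH 8.6 are at 0.61 or higher for LYS20, LYS9 and LYS1.

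In the line kept for 750 generations at pH 8.6, LYS9 was 1.92-fold and LYS12 1.41-fold higher than in the haploid ancestor, and both passed the test. LYS1 at 1.79-fold and LYS20 at 1.68-fold did not pass. The errors are pooled over all 17 haploid and spore arrays. On the 4 pH arrays alone the LYS20 differences lay between 0.74 and 0.77. LYS21 and the activator gene LYS14 had fitted changes of 0.10 and −0.03.

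LYS9 had a level of 11.07 in haploid ancestor 1 and 11.99, 11.92, 11.99 and 12.15 on the 4 pH arrays. LYS12 had 11.79 in the ancestor and 12.16, 12.27, 12.33 and 12.37 on the pH arrays. For both genes all 4 pH arrays were above the ancestor. The mean difference was 0.94 ± 0.10 for LYS9 and 0.49 ± 0.09 for LYS12 (SD, n = 4), and the fit gave 0.94 ± 0.13 (SE, n = 4 against 1, limma adjusted p = 0.0144) and 0.49 ± 0.08 (adjusted p = 0.0392). These are 2 of 7 members, where 0.149% of all genes, or 8 genes, passed as higher.

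LYS20 stood at 11.61 in the ancestor and at 12.37, 12.35, 12.35 and 12.38 on the pH arrays. LYS1 stood at 9.03 in the ancestor and at 9.64, 9.81, 9.94 and 10.07. LYS4 stood at 10.37 in the ancestor and at 10.74, 10.74, 10.78 and 10.83. These genes were also above the ancestor on every pH array, yet the changes of 0.75 ± 0.18, 0.84 ± 0.18 and 0.41 ± 0.13 had limma adjusted p = 0.172, 0.149 and 0.293. Their 95% intervals, not adjusted for the number of genes, were 0.35 to 1.15, 0.44 to 1.23 and 0.12 to 0.69.

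LYS21 had 10.93 in the ancestor and 11.00, 10.95, 11.13 and 11.05 on the pH arrays, so its range began next to the ancestor. LYS14 had 9.27 in the ancestor and 9.24, 9.18, 9.28 and 9.24 on the pH arrays, which lay on both sides of it. In all, 6 of 7 members were above the ancestor on all 4 pH arrays, as were 32% of all genes. The median change of the members was 0.49 and that of all genes 0.01. LYS20 exceeded LYS21 in its difference from the ancestor on every pH array, by 0.69, 0.72, 0.54 and 0.64, which was not tested.

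**Figure D3:**
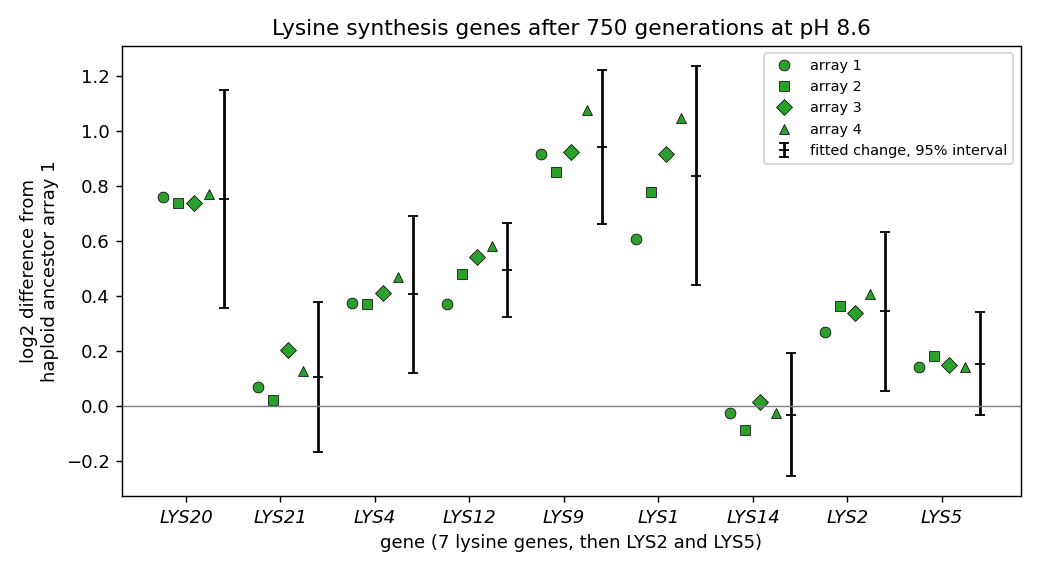
Log2 difference of each of the 4 arrays after 750 generations at pH 8.6 from haploid ancestor 1, with the fitted change and its 95% interval beside the points. LYS9 lies between 0.85 and 1.08 on the 4 arrays and LYS14 between −0.09 and 0.01.

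The pH contrast rests on 1 reference array. After repeated normalization haploid ancestor 2 differed from it by 0.09 at LYS20, −0.34 at LYS21, −0.15 at LYS4, 0.15 at LYS12, −0.01 at LYS9, 0.00 at LYS1 and −0.29 at LYS14, against an SD of 0.461 over all genes. The pH line and its reference also differ in mating genes. On haploid ancestor 1, STE3, the receptor gene of alpha cells, was at 11.05 and STE2, the receptor gene of a cells, at 5.29. On the pH arrays STE2 was at 10.52 to 11.80 and STE3 at 6.23 to 6.50, the pattern of the other mating type. Haploid ancestor 2, with STE2 at 13.19 and STE3 at 7.83, also had STE2 above STE3. In the fit, 6 genes specific to a cells changed by 3.26 to 7.02, and 4 specific to alpha cells by −7.86 to −2.77. None of these passed either, so a gene that did not pass in this comparison may still differ. GPA1, a haploid-specific signalling gene, was at 10.25, 10.17, 9.38 and 8.82 on pH arrays 1 to 4, against 10.18 in the ancestor. LYS1, LYS12, LYS4 and LYS21 were higher on arrays 3 and 4 than on arrays 1 and 2, while LYS20 was not. GPA1 was lower on arrays 3 and 4. The share of all genes with this split was not counted. The part of the mating-gene or the GPA1 difference in the results was not tested. With pH arrays 3 and 4 left out no member passed, and with no set term none did, with LYS12 at −0.055. Leaving out 1 array at a time gave 1 to 3 calls.

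The other genes of the pathway did not pass in the pH line. LYS2 had 0.34 ± 0.13 (limma adjusted p = 0.35), LYS5 0.15 ± 0.09 (adjusted p = 0.495) and ARO8 0.02 ± 0.10 (adjusted p = 1). None of the 4 genes of regulation and transport passed, with GCN4 at 0.01 ± 0.06 and LYP1 at 0.04 ± 0.06. Of the other 23 genes under Gcn4 none passed, 6 had a positive change and the median was −0.05. The 9 genes around 2-oxoglutarate all had a positive change, with a median of 0.20, and none passed. Over all genes 2907 of 5352 had a positive change.

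Earlier arrays of the pH line had no reference of their own set and were compared with each other, 1 array against 1, with the spread taken from the other groups. No member passed in the disomic against the euploid spore, where 6.39% of genes did. An unadjusted p under 0.05 was found for 973 of all 5352 genes and for 1 of the 7 members. That was LYS1, at 9.22 in the disomic and 9.77 in the euploid spore, a change of −0.55 ± 0.23 (limma adjusted p = 0.223). LYS20 had 13.07 in the disomic and 12.60 in the euploid spore, and 13.07 after 150 generations at pH 8.6. No member passed in the euploid spore against the array at 150 generations, where 5.29% of genes did, or in the disomic spore against it, where 0.0374% did. No member had an unadjusted p under 0.05 in either, while 935 and 543 of all 5352 genes did. Intervals here were wide, from −1.06 to 0.97 over the members in the spore comparison.

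In the heat lines not labelled as on minimal medium the members were close to their references. After gradual heat the 7 changes ran from −0.13 to 0.00, and none passed (n = 4 against 1), where 0.075% of all genes did. No member had an unadjusted p under 0.05, while 74 of 5335 genes did. The 95% bounds of the 7 changes reached from −0.38 to 0.27. LYS9 had 11.47 in the ancestor and 11.38, 11.29, 11.31 and 11.35 on the gradual-heat arrays, and LYS1 had 9.36 and 9.39, 9.29, 9.31 and 9.25. LYS20, LYS4, LYS12 and LYS9 were below the ancestor on all 4 arrays, 4 of 7 members, as were 32.7% of all genes. A single reference carries each of these contrasts, and after repeated normalization the 2 diploid ancestor arrays differed by 0.97 at LYS20, 0.75 at LYS21, 0.87 at LYS4, 0.42 at LYS9, 0.48 at LYS1 and 0.47 at LYS14, and by 0.005 at LYS12, against an SD of 0.346 over all genes. The gradual-heat arrays were close to each other, with an SD of 0.0571 to 0.0949 over genes for the difference of 2 arrays.

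In H2 after 600 generations at 30 °C, LYS9 had 11.31, 11.64, 11.62 and 11.52, against 11.26 in the ancestor. LYS20 had 11.54, 11.91, 11.63 and 11.50, against 11.49. Both genes were above the ancestor on all 4 arrays, as were LYS4 and LYS14, in all 4 of 7 members against 21.6% of all genes. The members' changes ran from −0.04 to 0.26 with bounds from −0.26 to 0.47, and none passed by limma, where 0.075% of genes did. LYS9, at 0.26 ± 0.10 (n = 4 against 1, limma adjusted p = 0.758), was the member with an unadjusted p under 0.05, which 296 of 5335 genes had. The same line on minimal medium, in its own set, had the lowest values described above, and the contrast between these H2 states cannot be told apart from medium, heat and normalization run.

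The comparison of abrupt heat with the ancestor rested on abrupt-heat array 2 and ancestor array 1. The 7 changes ran from −0.11 to 0.24 with bounds from −0.44 to 0.50, and none passed, where 0.3% of genes did. No member had an unadjusted p under 0.05, while 264 of 5335 genes did. Against 450 generations at 30 °C, again 1 array against 1, changes ran from −0.04 to 0.35 and none passed, where 1.52% did. LYS9 had the largest, with 11.98 on the abrupt-heat array and 11.63 on the 30 °C array (0.35 ± 0.12, limma adjusted p = 0.22). It was the member with an unadjusted p under 0.05, which 624 of 5335 genes had. H2 at 30 °C against abrupt heat gave changes from 0.03 to 0.21 with no call, where 1.78% of genes passed. LYS4, at 0.21 ± 0.07 (limma adjusted p = 0.248), was the member with an unadjusted p under 0.05, which 575 of 5335 genes had. Ancestor array 1 is shared by the contrasts of abrupt heat, of H2 at 30 °C and of both clones with the ancestor.

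The trisomic and monosomic clones gave no call either. In the trisomic clone changes ran from −0.09 to 0.28 (1 array against 1), where 0.45% of genes passed. LYS1, at 0.28 ± 0.13 (limma adjusted p = 0.877), was the member with an unadjusted p under 0.05, which 289 of 5335 genes had. In the monosomic clone changes ran from −0.22 to 0.18, where 0.825% passed. No member had an unadjusted p under 0.05 there, while 296 of 5335 genes did. LYS1 stood at 9.16 in the trisomic clone, 8.85 in the monosomic clone and 8.88 in the ancestor.

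LYS2, which acts between LYS12 and LYS9, is listed with MET17 among the auxotrophic marker genes of laboratory strains. It passed the test in several of these groups where no member did. It had 9.34 in ancestor array 1, 10.19 on abrupt-heat array 2, and 10.38, 10.38, 10.17 and 10.36 in H2 at 30 °C. In the second set it had 10.33 in ancestor array 2 and 10.93, 10.93, 10.99 and 10.99 after gradual heat. All of these evolved arrays were above their reference, by 0.85 ± 0.10 after abrupt heat (limma adjusted p = 0.0045), 0.63 ± 0.08 after gradual heat (adjusted p = 0.00628) and 0.98 ± 0.08 in H2 (adjusted p = 5.69e-05). It was lower in the monosomic clone, at 8.72 (−0.61 ± 0.10, adjusted p = 0.0181), and had 9.47 in the trisomic clone (0.13 ± 0.10, adjusted p = 1). The ancestor arrays themselves differed by 1.02 at LYS2 after repeated normalization. MET17 was above background on 7 of 40 arrays, which were the 2 diploid ancestor arrays, both clones, the ancestor on minimal medium and the trisomic descent. On each of the evolved arrays with higher LYS2 it was below background. The labels do not give the copy number of LYS2. Its part in the LYS2 levels, and that of this strain difference, were not tested.

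**Figure D4:**
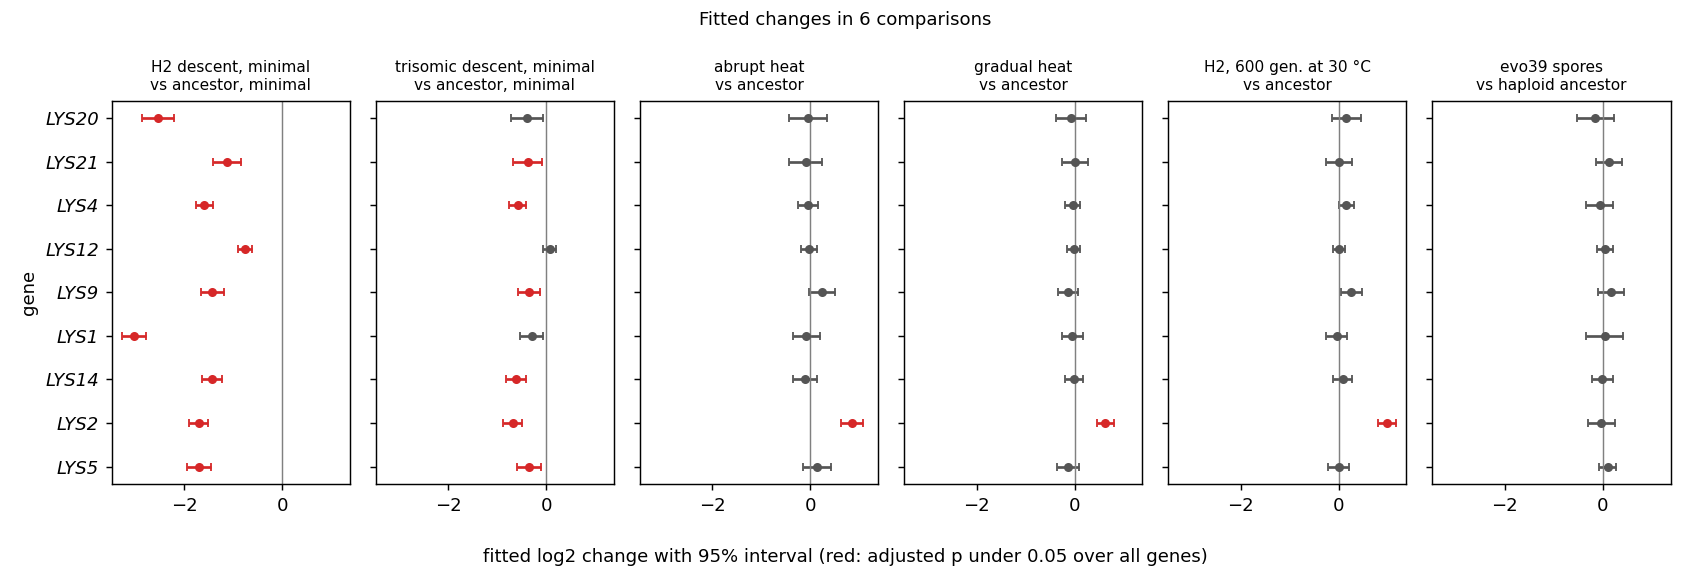
Fitted log2 change with its 95% interval for the 7 genes, LYS2 and LYS5 in 6 comparisons, with changes at a limma adjusted p under 0.05 in red. The members are red only in the minimal-medium panels, and LYS2 is red at 0.85, 0.63 and 0.98 in the abrupt-heat, gradual-heat and H2 30 °C panels.

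In the 8 evo39 spores no member passed against haploid ancestor 2, with changes from −0.15 to 0.17 and bounds from −0.53 to 0.44 (n = 8 against 1). By limma 0% of all genes passed, although 674 genes and no member had an unadjusted p under 0.05. The fit also called none of 6 mating genes specific to a cells, at −6.51 to −3.30. Nor did it call any of 4 specific to alpha cells, at 1.18 to 5.12. The lack of a call in this comparison thus does not show that levels were the same. LYS9 ranged from 12.08 to 12.42 with a median of 12.21 over the spores, all above the 12.06 of the ancestor, as 15.5% of all genes were. LYS20 ranged from 12.07 to 12.74 with a median of 12.53, around the 12.64 of the ancestor, and spore 2 was lowest. LYS1 ranged from 10.02 to 10.54 with a median of 10.13 around the 10.15 of the ancestor, and LYS14 from 9.95 to 10.29 around 10.10.

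The spores were not alike in their haploid markers. On spores 1, 5 and 7, 0 of 5 haploid-specific genes reached the midpoint between the ancestors of either ploidy, and GPA1 was at 7.06 to 7.36 against 11.07 to 11.46 on the other 5. LYS9 was highest on these 3 spores, at 12.34, 12.42 and 12.38, and LYS20, at 12.63, 12.74 and 12.64, was highest there as well. LYS21 was not: its difference from the ancestor was 0.17, 0.24 and 0.14 there but 0.25 on spore 4. The share of all genes highest on these 3 spores was not counted. Without these 3 spores LYS20 had −0.26 (limma adjusted p = 0.54) and LYS9 0.08, and no member passed. Of the remaining spores only spore 3, with STE2 at 12.84 and STE3 at 7.10, had STE2 above STE3 as haploid ancestor 2 did. On spores 2, 4, 6 and 8 STE3 was at 10.9 to 11.85 and STE2 at 6.79 to 7.42, the pattern of the other mating type. The part of these marker differences in the lysine gene levels was not tested.

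Over the 39 arrays that share a set with another, each centred on its set, the members rose and fell together. The 21 pairs of members had Pearson correlations of 0.70 to 0.94. Without the 5 minimal-medium arrays, the range over 34 arrays was −0.02 to 0.89, and the pairs with LYS14 reached 0.32 at most. The genes whose pattern was most like the mean of the members were AMD2 with r = 0.953, ARG7 with 0.949, AAT2 with 0.945, YHI9 with 0.942 and YNR068C with 0.940. Without the minimal-medium arrays AAT2, encoding the cytosolic aspartate aminotransferase, had 0.770 and ARG7, of arginine synthesis, 0.544. Within the pathway LYS5 had 0.915 and ranked at 42 of 5359 genes, ARO8 had 0.894, and LYS2 had 0.675 and ranked at 533. Without the minimal-medium arrays these fell to 0.286 for LYS5, 0.292 for ARO8 and 0.356 for LYS2. These arrays share normalization runs and lines, and the correlations are descriptions.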

How the data were processed

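Transcript levels were measured on 40 arrays of 16 groups, and the deposited log2 values were made by the authors with RMA, per the submitters' processing notes. Scanner files were not used here. Of 10928 probe sets, 5498 were matched by gene number to 5449 genes of the R64 gene table, used for names and chromosomes, and for 47 genes several probe sets were averaged. Arrays with at least 0.1% of values identical to the last digit were joined as a normalization set. Genes above background on at least 2 arrays entered the fit by limma (version 3.58.1, R version 4.3.3), with a trended prior, the set as a fixed term, Benjamini-Hochberg adjustment at 0.05, and 9 (diploid) or 10 (haploid) residual degrees of freedom. A group with 1 array is assumed to vary like the replicated groups, which were not alike. The SD over genes for the difference of 2 arrays was 0.0571 to 0.0949 after gradual heat and 0.1291 to 0.4724 in the evo39 spores. It was 0.2016 in H2 and 0.3026 in the trisomic descent on minimal medium. Each SE rests on the spread pooled over the groups of its fit. The number of arrays limits the precision.

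The members, the lists of other genes and the set term were chosen with earlier results of these data known. The rule for named genes was all 7 members in each comparison, the listed genes of the pathway, its regulation, 2-oxoglutarate supply and Gcn4, with values where they moved or mark a role, and the 5 genes most like the members' mean. Some listed genes are not reported here. The fit was tested on simulated data. Alternatives were no set term, a random set term, the compared groups alone, a fit of all 40 arrays, median centring, repeated quantile normalization, no background filter, array weights, the probe set with the highest mean, leaving out each array, and a replicate block. Leaving out pH arrays 3 and 4 or evo39 spores 1, 5 and 7 was chosen after seeing the data.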

Additional observations from a re-analysis of the deposited data

Results flagged for a closer look

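Among 28 groups of member values with 4 to 10 arrays, 4 held an array far from the others by Dixon's test, and chance gives about 1 in 20. After gradual heat LYS20 was lowest on array 1, at 12.11, with the next at 12.15. LYS4 was lowest on gradual-heat array 2, at 10.60, with the next at 10.62. LYS12 was lowest on gradual-heat array 3, at 12.0679, with the next at 12.0685. The gradual-heat arrays nearly coincide at these 3 genes. LYS21 was lowest on evo39 spore 2, at 11.43, with the next at 11.69.

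The change on minimal medium differed between the H2 and the trisomic descent at each member by limma. H2 minus trisomic was −2.14 for LYS20, −0.74 for LYS21, −1.01 for LYS4, −0.82 for LYS12, −1.07 for LYS9, −2.73 for LYS1 and −0.82 for LYS14.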

How the results depend on the processing

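Of 1267 member results under an alternative, 1155 kept their sign and side of the threshold, 28 lost a call and 23 gained one. Only 1 called change turned its sign, LYS12 in the high-pH line with no set term, at −0.055. Among 995 results uncalled in both, 60 differ in sign, 31 of them with no set term.

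With no set term the members called were 0 in the trisomic descent against the ancestor on minimal medium and 3 in H2 against the trisomic descent. They were 0 in the high-pH line and 4 in the evo39 spores. The median of all genes moved to −0.52 in the high-pH line and 0.51 in the spores. With the compared groups alone the members called were 0 in the trisomic descent and 1 in the high-pH line, where median centring also gave 1. Array weights gave 5 in the high-pH line. They gave 2 for abrupt heat against 30 °C, the trisomic clone and the disomic against the euploid spore. They gave 1 for H2 at 30 °C against the ancestor and against abrupt heat. The monosomic clone and the euploid spore against 150 generations also had 1. In the high-pH line there were 0 without pH arrays 3 and 4, and leaving out 1 array gave 1 to 3. The causes were not tested.

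H2 and the trisomic descent share replicate numbers, which the labels do not tie to cultures or days. The deviations of same-numbered arrays correlated at r = 0.40 over 5366 genes, with 2 pairs, and the replicate block left 7 members called. A replicate block for H2 at 30 °C against abrupt heat left 0.

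Counts of all genes called moved by over 1.5 times in every comparison under at least 1 alternative. In H2 against the ancestor on minimal medium 3092 became 508 with no set term and 1338 with the compared groups alone, in the trisomic descent 1804 became 38 and 0, and between the lines 2110 became 224 and 797, with 1074 under array weights. In the high-pH line 8 became 1540 with no set term, 17 with the groups alone and 18 with all 40 arrays. It became 1543 with array weights, 56 without pH array 1 and 3 without each of the others. In the evo39 spores 0 became 3320 with no set term, 750 with array weights, and 12 and 27 without spores 3 and 4. Elsewhere counts ranged from 2 to 446 after gradual heat (4), 0 to 107 in H2 at 30 °C (4), 3 to 331 for abrupt heat against the ancestor (16), 1 to 1144 against 30 °C (81), 0 to 480 for H2 at 30 °C against abrupt heat (95), 1 to 390 in the trisomic clone (24), 1 to 363 in the monosomic clone (44), 3 to 1191 for the disomic against the euploid spore (342), and 5 to 1162 and 0 to 533 for the euploid and the disomic spore against 150 generations (283 and 2).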

Other observations

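Abrupt heat against 450 generations at 30 °C, 1 array against 1, was the comparison outside minimal medium with the most calls in the listed amino acid genes. Of the 23 other genes under Gcn4, 5 passed as higher by limma, where 1.18% of all genes did, and the median over the 23 was 0.20. The 5 were ARG1 at 2.02 ± 0.36, ARG3 at 1.70 ± 0.31, LEU1 at 0.71 ± 0.12, ARG4 at 0.64 ± 0.08 and HIS4 at 0.63 ± 0.08. ARG1 also differed between arrays of the same label. By percentage of genes on the array with a lower level it was at 46.8% and 94.2% on ancestor arrays 1 and 2. On the abrupt-heat arrays it was at 64.6% to 94.2%. CIT2, the peroxisomal citrate synthase gene, was higher by 2.10 ± 0.24 (limma adjusted p = 0.00223), while no lysine gene passed. HIS4 and ARG4 passed as higher in the trisomic clone, at 0.45 ± 0.08 and 0.60 ± 0.08, and HIS4 passed as lower in the monosomic clone, at −0.48 ± 0.08. HIS4 and CIT2 lie on chromosome III, which is present in 3 copies in the first clone and in 1 in the second, and ARG4 does not. The part of copy number in these changes was not tested. None of these 23 genes passed against the ancestor after abrupt heat, after gradual heat or in H2 at 30 °C.

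GCN4 was higher in the disomic than in the euploid spore of the pH line, by 0.29 ± 0.08 (limma adjusted p = 0.0426, 1 array against 1). GCN4 lies on chromosome V, the labels do not name the chromosome of the disomic spore, and extra copies and regulation cannot be told apart here. ACO1, the mitochondrial aconitase gene, was higher in the euploid spore than at 150 generations of pH 8.6, by 0.64 ± 0.14 (adjusted p = 0.0185). Neither comparison called a lysine gene.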
